A study of Mus musculus with 6 samples.

Results

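Brush-border peptidases are the membrane enzymes with which enterocytes finish the digestion of protein. Here they are 9 genes, listed by name: *Enpep*, *Anpep*, *Xpnpep2*, *Dpp4*, *Ace*, *Mme*, *Mep1a*, *Mep1b* and *Naaladl1*. Each matched a single symbol in the annotation of the array platform and had 1 probe set, so 9 of 19938 genes with a single symbol, and 9 of 30177 probe sets, are described. Villi had been isolated from the whole intestine of 5-day-old pups, in 3 *Trpm7* fl/fl;*Villin1-Cre* replicates (*Trpm7*-intestine KO, called mutant here) and 3 *Trpm7* fl/fl littermate replicates (control). Both genotypes carried the floxed *Trpm7* alleles, and the *Villin1* promoter drives Cre in the epithelium of the whole intestine, so deletion is not expected in stroma, vessels or blood cells. The labelled background is C57BL/6. For the floxed line, the study's methods name another strain. The sex of the pups is given as unknown. The study counts the replicates as littermates, and pooling is not mentioned in the sources used here.

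Dietary protein reaches the small intestine as large fragments that the brush border cuts into amino acids and short peptides. Endopeptidases such as neprilysin and the meprins cut within the chain, and aminopeptidases remove residues from its amino end. Enzymes for bonds next to proline are needed because most other peptidases cannot cut there. Most of these proteins are zinc metalloenzymes, whereas dipeptidyl peptidase 4 is a serine enzyme. Several also clip peptide hormones, among them angiotensins, bradykinin and incretins. In suckling rodents they work on milk protein, much of which is also taken up whole by endocytosis.

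In mutant villi *Xpnpep2*, *Enpep*, *Mep1b* and *Dpp4* rose and *Mme* and *Ace* fell. *Anpep*, *Naaladl1* and *Mep1a* did not pass the test, with adjusted p values of 0.058, 0.068 and 0.21 from limma. The changes ran from 2.21 for *Xpnpep2* to −1.76 for *Mme* on the log2 scale. Rose and fell mean an adjusted p of 0.05 or less in limma, adjusted by Benjamini-Hochberg across the 30177 probe sets. By this criterion 8.04% of all probe sets were higher and 8.82% were lower in mutant villi (2427 and 2661, or 1996 and 3456 once the arrays were centred on their medians), against 4 and 2 of the 9 peptidases under either scaling. Called with a change of at least 2-fold were 3 of the 9, *Xpnpep2*, *Mme* and *Enpep*, and 2.53% of all probe sets. *Enpep* was close to the 2-fold limit, which is 1 on the log2 scale. Its change was 1.04, but 0.99 with median centring, and it ran from 0.97 to 1.17 over 15 alternative settings. Among the 4910 probe sets at least as bright as the dimmest of the 9 genes, 14.4% were higher and 16.6% were lower. The median change of the 9 genes was 0.57, and that of all genes with a single symbol was 0.01. These counts describe the 9 genes and carry no test of the list.

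All values are the authors' normalized log2 signals, where 1 unit is a 2-fold difference. Array medians lay between 6.24 and 6.3, and both group means of all 9 peptidases lay above 6.28, the median of the probe sets' means. *Trpm7* itself had signals of 8.03, 7.79 and 7.88 in mutant villi and 9.11, 8.96 and 9.03 in control villi (change −1.13 on the log2 scale, adjusted p = 1.9e-04 from limma). Where its probes lie relative to the floxed sequence was not looked up, so how far this fall reflects the deletion is not known. By qPCR, the study reports almost no wild-type *Trpm7* transcript in mutant villi of the same age. Between arrays, control replicates 2 and 3 were the most alike, with a root mean square difference of 0.184, against 0.239 to 0.28 for the other pairs of the same genotype. Control replicates 2 and 3 held both *Xist* (9.82 and 9.66) and the Y-linked *Uty* (7.64 and 7.72), so a replicate may hold RNA of both sexes. Control replicate 1 lay apart from these arrays in several of the genes below. The defining markers of enterocytes were strong in all arrays: of 6 markers, *Fabp1* fell, none rose and 5 did not pass the test. Their summed linear signal was 83846 to 85039 in mutant villi and 87919 to 88507 in control villi, without overlap. *Apoa4* was at the highest value of each array, 14.45 to 14.48 in mutant villi and 14.53 in control villi.

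The stretches of 250 bases before the annotated transcription start of 5 peptidases are shown, since these genes rose or fell and their upstream sequences differ in make-up. *Mep1b* rose as well, but its stretch was neither searched nor shown. They come from RefSeq on GRCm38.p6, are written along the gene's strand and belong to the start that lies farthest upstream. Capitals mark matches on either strand to the CCAAT box, to TATAA, a core of the TATA box, or to AGATAA, a motif of GATA factors.
*Xpnpep2*, chrX:48108475-48108724, plus strand: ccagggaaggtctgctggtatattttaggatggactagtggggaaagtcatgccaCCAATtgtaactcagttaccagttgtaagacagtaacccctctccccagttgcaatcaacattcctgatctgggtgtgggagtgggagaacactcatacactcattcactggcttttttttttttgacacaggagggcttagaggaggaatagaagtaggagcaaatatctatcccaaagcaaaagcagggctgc
*Enpep*, chr3:129332750-129332999, minus strand: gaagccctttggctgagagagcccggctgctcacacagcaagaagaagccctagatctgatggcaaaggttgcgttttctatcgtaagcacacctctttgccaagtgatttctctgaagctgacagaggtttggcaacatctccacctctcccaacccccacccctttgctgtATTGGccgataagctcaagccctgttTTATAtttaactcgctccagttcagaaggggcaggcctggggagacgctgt
*Dpp4*, chr2:62412232-62412481, minus strand: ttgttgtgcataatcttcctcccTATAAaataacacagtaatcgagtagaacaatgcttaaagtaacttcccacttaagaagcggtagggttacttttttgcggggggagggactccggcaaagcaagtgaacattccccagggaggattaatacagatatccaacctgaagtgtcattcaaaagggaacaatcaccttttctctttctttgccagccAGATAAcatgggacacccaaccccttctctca
*Mme*, chr3:63294961-63295210, plus strand: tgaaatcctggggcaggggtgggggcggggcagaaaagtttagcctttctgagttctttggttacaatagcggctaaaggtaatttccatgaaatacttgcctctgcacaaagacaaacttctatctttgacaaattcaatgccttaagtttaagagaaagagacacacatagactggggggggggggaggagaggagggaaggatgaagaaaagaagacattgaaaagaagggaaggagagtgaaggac
*Ace*, chr11:105967698-105967947, plus strand: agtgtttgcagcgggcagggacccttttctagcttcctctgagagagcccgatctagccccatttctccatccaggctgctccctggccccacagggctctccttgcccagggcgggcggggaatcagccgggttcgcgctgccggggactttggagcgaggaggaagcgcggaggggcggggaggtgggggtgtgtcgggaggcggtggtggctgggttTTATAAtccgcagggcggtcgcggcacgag

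The *Ace* stretch held 67.2% G and C, against 52.4% in that of *Enpep*, 46% in that of *Xpnpep2*, 45.6% in that of *Mme* and 43.6% in that of *Dpp4*. In *Ace*, TATAA began 29 bases before the start, and its match on the opposite strand overlapped it. *Dpp4* had AGATAA 32 bases and *Enpep* had CCAAT on the opposite strand 77 bases before the start. The TATAA match lay farther from the start in the other 2, at 227 bases in *Dpp4* and at 51, on the opposite strand, in *Enpep*. Upstream stretches were searched for 7 of the 9 genes, on both strands, and over the same length in 27025 mouse genes, each at its start farthest upstream. CCAAT was found in 3 of the 7 and in 34.5% of all, TATAA in 3 of the 7 and in 23.5% of all, and AGATAA in 1 of the 7 and in 10.2% of all. None of the 7 held the CDX motif TTTATG (11.1% of all), the HNF1 motif GTTAAT (6.54%) or the HNF4 motif TGNACTTTG (1.21%). Other annotated starts of *Mme* and *Ace* had CCAAT within the same length, and these are not in the counts. TGACNNNGC, a core of the antioxidant response element, was in 1 of the 7, that of *Mep1a*, and in 10.1% of all. These matches describe letters and say nothing of binding.

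*Xpnpep2* encodes membrane-bound aminopeptidase P, which removes the residue in front of a proline at the amino end of a peptide. Its log2 signal was 9.89, 10.35 and 10.45 in mutant villi and 8.14, 7.93 and 7.98 in control villi. All 3 mutant arrays lay above all 3 control arrays, with a gap of 1.75 between the nearest. The mean was 10.23 ± 0.30 in mutant villi and 8.02 ± 0.11 in control villi (SD, n = 3 each), a 4.64-fold rise with a 95% interval from 3.67-fold to 5.86-fold (adjusted p = 1.0e-04 from limma). Of the 9 genes it had the largest change, larger in size than that of 99.6% of all probe sets. *Xpnpep2* lies on the X chromosome, and *Xist* was 10.18, 4.76 and 5.26 in mutant replicates 1, 2 and 3, against 10.48, 9.82 and 9.66 in control replicates 1, 2 and 3. Mutant replicate 1 and control replicate 1 were both high in *Xist* and low in *Uty* (3.88 and 4.24), and between these arrays *Xpnpep2* differed by 1.75. Between the mean of mutant replicates 2 and 3 and that of control replicates 2 and 3 it differed by 2.44. Mutant replicates 2 and 3 were low in *Xist* and high in *Uty* (8.1 and 8.38), while control replicates 2 and 3 held both. The latter comparison is therefore not matched for sex, and the former sets single arrays side by side. The part of sex in the change of *Xpnpep2* was not tested.

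*Dpp4* encodes the other enzyme specific for proline in this group, dipeptidyl peptidase 4, which releases dipeptides that end in proline or alanine and inactivates incretins. Its signal was 11.86, 11.67 and 11.90 in mutant villi and 10.88, 10.85 and 10.84 in control villi. The control replicates differed by less than in any other of the 9 genes (SD 0.02), and no mutant array came within 0.79 of them. The rise was 0.95 on the log2 scale, or 1.94-fold (95% interval 1.70 to 2.21, adjusted p = 3.1e-04 from limma). Its change was nearly the same between replicates 1 (0.98) and between replicates 2 and 3 (0.94) of the genotypes. *Xpnpep2* rose by 1.26 more than *Dpp4* on the log2 scale (exact permutation test, two-sided, p = 0.1, the smallest that 3 arrays against 3 allow, and 0.15 adjusted over 3 pairs).

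*Enpep* encodes glutamyl aminopeptidase, which removes acidic residues from the amino end and converts angiotensin II to angiotensin III. It had signals of 12.01, 11.93 and 12.16 in mutant villi, against 11.24, 10.88 and 10.85 in control villi. Control replicate 1 was the nearest of the control arrays to the mutant ones, 0.69 below the lowest of them. The difference between genotypes was 1.04 on the log2 scale (2.06-fold, 95% interval 1.70 to 2.50, limma adjusted p = 0.0011), and it came to 1.17 without control replicate 1. From these same arrays the study already reports *Enpep* as up-regulated, with only *Gstm3* beside it among the markers of villus zones that it examined. *Anpep*, for aminopeptidase N, acts on neutral residues and is among the most abundant brush-border proteins. Its signals were 13.29, 13.09 and 12.87 in mutant villi and 12.44, 12.75 and 12.75 in control villi. The groups did not overlap, but mutant replicate 3 lay only 0.12 above the highest control array. The difference of 0.44 (95% interval 0.13 to 0.74) was not called (limma adjusted p = 0.058), but with mutant replicate 3 left out it passed (0.54, limma adjusted p = 0.033). Over the 15 alternative settings, the adjusted p of *Anpep* ran from 0.033 to 0.16 and was 0.05 or less in 4. The change of *Enpep* exceeded that of *Anpep* by 0.61 (exact permutation test, two-sided, p = 0.2).

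**Figure D1:**
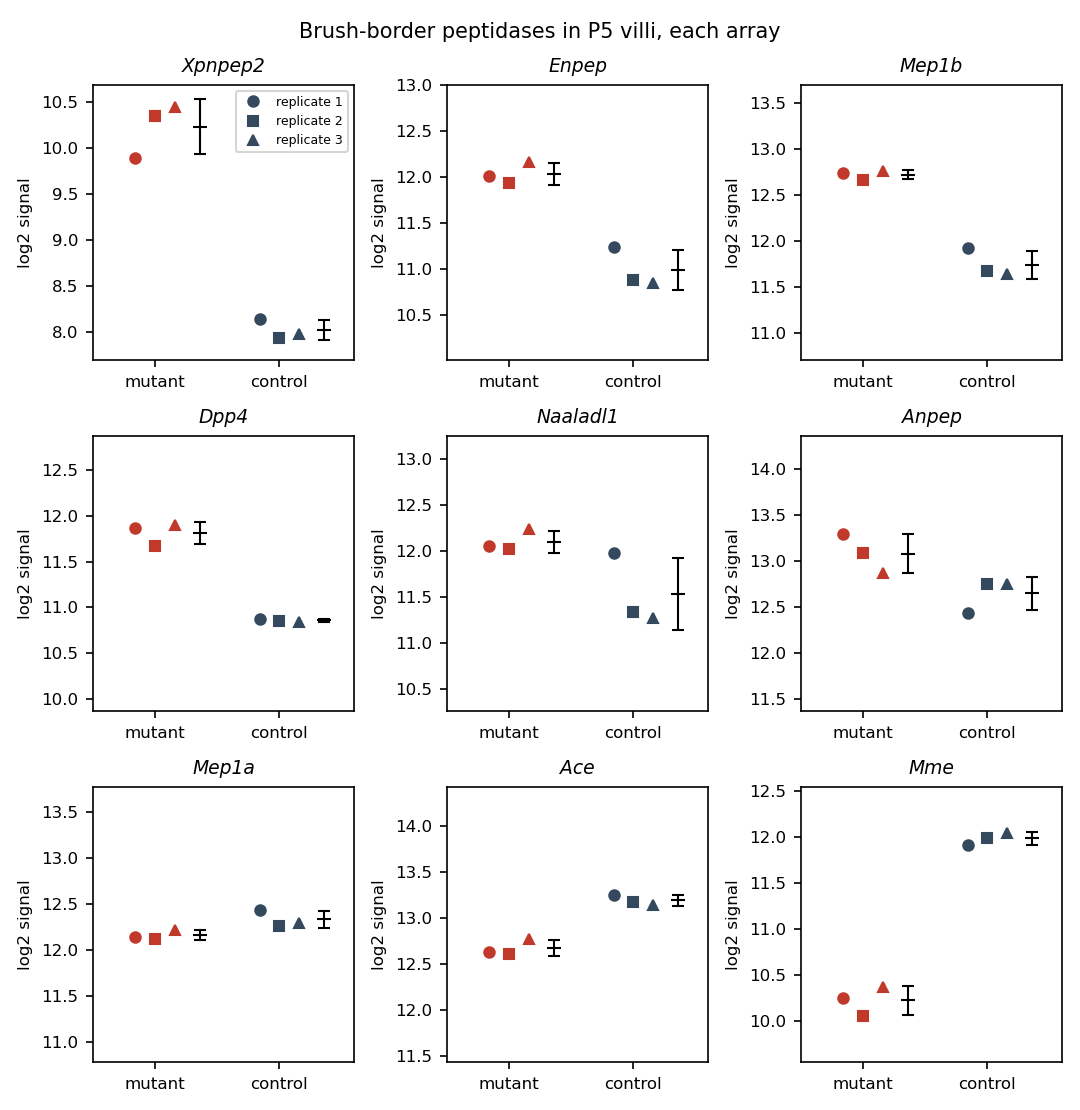
Log2 array signal of the 9 brush-border peptidase genes in P5 villi, ordered by change, with 3 mutant replicates left and 3 control replicates right in each panel; marker shape gives the replicate, black bars are mean and SD, and every vertical axis spans the same number of log2 units. The mutant points of *Xpnpep2* sit between 9.89 and 10.45, above control points of 7.93 to 8.14, while those of *Mme* sit between 10.05 and 10.36, below control points of 11.91 to 12.04.

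*Mme* encodes neprilysin, a zinc endopeptidase that cuts before hydrophobic residues and degrades many signalling peptides. It was the gene with the largest fall: its signal was 10.24, 10.05 and 10.36 in mutant villi and 11.91, 11.99 and 12.04 in control villi. The lowest control array was 1.55 above the highest mutant array. The mean was 10.22 ± 0.16 in mutant villi and 11.98 ± 0.07 in control villi (SD, n = 3 each), which is 3.39-fold lower (95% interval 2.91 to 3.96, adjusted p = 4.5e-05 from limma). Neprilysin is also a surface marker of some stromal cells and, in human, of lymphocyte precursors. In bulk villi, fewer cells of a type and less RNA per cell cannot be told apart. The summed linear signal of 6 fibroblast markers was 2027 to 2648 in mutant villi and 1380 to 1840 in control villi, with *Dcn* and *Pdgfra* higher and 4 not called. That of 4 lymphocyte markers was 210 to 251 in mutant villi and 219 to 247 in control villi, with none called by limma (1 at an unadjusted p under 0.05) and *Cd3e*, *Cd3g* and *Cd79a* under the array median in both groups.

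*Ace* encodes angiotensin-converting enzyme, which removes dipeptides from the carboxyl end. Its signals were 12.63, 12.60 and 12.77 in mutant villi and 13.25, 13.17 and 13.14 in control villi. The groups lay 0.37 apart, and both were near the upper end of the arrays, whose highest values were 14.45 to 14.53. It fell by 0.52 on the log2 scale (95% interval −0.70 to −0.34, adjusted p = 0.0037 from limma). Endothelium is a known site of *Ace*. The summed signal of 5 endothelial markers was 1116 to 1366 in mutant villi and 1416 to 1556 in control villi, with *Tek* and *Emcn* lower and *Pecam1*, *Cdh5* and *Kdr* not called. The part of endothelium in the change of *Ace* was not tested.

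The meprins are zinc endopeptidases built from an alpha subunit, encoded by *Mep1a*, and a beta subunit, encoded by *Mep1b*. The beta subunit anchors the enzyme in the membrane, and the alpha subunit, which is cut off its anchor during synthesis, is held there by it. *Mep1b* had signals of 12.74, 12.66 and 12.76 in mutant villi and 11.92, 11.67 and 11.64 in control villi, a rise of 0.98 (1.97-fold, 95% interval 1.69 to 2.29, adjusted p = 4.7e-04 from limma). *Mep1a* had signals of 12.14, 12.12 and 12.22 in mutant villi and 12.43, 12.26 and 12.29 in control villi. Its groups were 0.04 apart, and the difference of −0.17 (95% interval −0.35 to 0.01) did not pass the test. Within each array, the *Mep1b* signal minus the *Mep1a* signal was 0.60, 0.54 and 0.54 in mutant villi and −0.51, −0.59 and −0.65 in control villi. This within-array difference changed by 1.14 (exact permutation test, two-sided, p = 0.1, the smallest possible, and 0.15 adjusted over 3 pairs). Since probes differ in brightness, its sign within a group does not give the ratio of the subunits' transcripts.

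*Naaladl1* encodes a zinc peptidase of the glutamate carboxypeptidase family that was described in the ileum. Its signals were 12.05, 12.02 and 12.24 in mutant villi and 11.98, 11.34 and 11.27 in control villi. Control replicate 1 came within 0.04 of the lowest mutant array and lay 0.68 above the mean of control replicates 2 and 3. Over all probe sets the median size of that deviation was 0.12 and its 95th percentile 0.43. The difference between genotypes was 0.57 (95% interval 0.16 to 0.99, limma adjusted p = 0.068), and it was 0.80 once control replicate 1 was left out, at an adjusted p of 0.0033 from limma. Without control replicate 2 it was 0.48 and without control replicate 3 it was 0.44, each at a limma adjusted p of 0.19. Over the 15 alternative settings, the adjusted p of *Naaladl1* ran from 0.0033 to 0.19. *Fabp6*, the ileal bile acid binding protein, had signals of 9.93, 10.82 and 9.87 in mutant villi and 7.82, 5.64 and 5.56 in control villi, so control replicate 1 was the highest control array in this gene too. *Slc10a2*, the ileal bile acid carrier, was higher in mutant villi as well (2.64, adjusted p = 0.0052 from limma), with a control mean of 4.22 under the array median, and was not raised in control replicate 1. The summed signal of these 2 ileal markers was 1005 to 1895 in mutant villi and 65 to 243 in control villi. Of 3 markers of the proximal intestine, *Onecut2*, *Pdx1* and *Gata4*, all fell, with a summed signal of 1707 to 1870 in mutant villi and 2505 to 2803 in control villi. Whether the arrays held different shares of ileum was not tested.

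**Figure D2:**
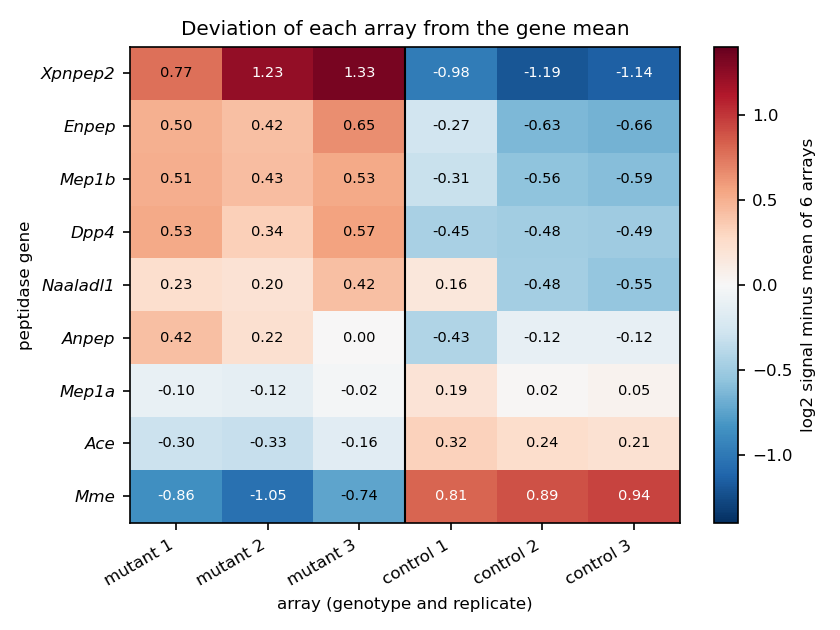
Log2 signal of each peptidase gene (rows, by change) on each array (columns, mutant replicates left of control replicates), minus the gene's mean over the 6 arrays. Red is above and blue below that mean: in 8 of the genes the genotypes have opposite signs or touch 0, and in *Naaladl1* control replicate 1 is at 0.16, beside −0.48 and −0.55 in control replicates 2 and 3.

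In each of the 9 genes the ranges of the 3 mutant and the 3 control arrays were separate, with the mutant range above in 6 and below in 3. Over all probe sets this held for 34.5%, with 16.9% above and 17.6% below, so a gap such as that of *Mep1a* is common on these arrays. These shares include dim probe sets, and they were not worked out for probe sets as bright as the 9 genes. Within genotypes the SD of the 9 genes ran from 0.05 to 0.30 in mutant villi and from 0.02 to 0.39 in control villi. Control replicate 1 was above both other control arrays in 7 of the 9 genes and below them in 2, *Anpep* and *Mme*. In 35.9% of all probe sets it was above both others and in 36.6% below. The 6 genes that rose or fell did so in each of 15 alternative settings, which included leaving out each replicate. Between replicates 1 of the genotypes, *Naaladl1* differed by 0.07 and *Anpep* by 0.85, and between replicates 2 and 3 by 0.82 and 0.23. For *Mme* these values were −1.67 and −1.81.

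**Figure D3:**
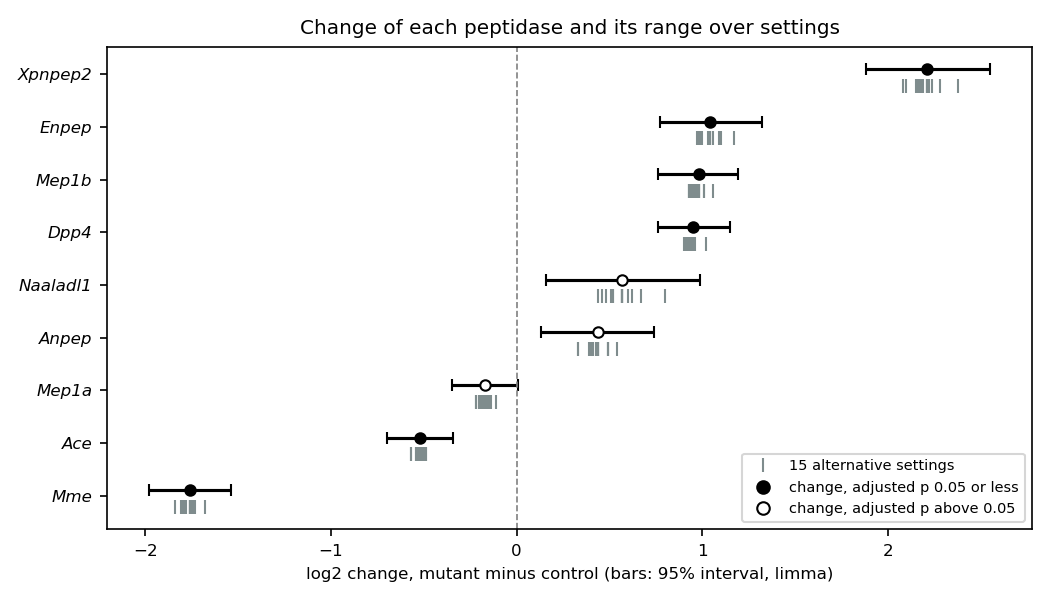
Log2 change of each peptidase gene, mutant minus control, with its 95% interval from limma (circles and bars, filled at an adjusted p of 0.05 or less), above the changes under 15 alternative settings (grey ticks). *Xpnpep2* stays between 2.08 and 2.38 and *Mme* between −1.84 and −1.68, while *Naaladl1* runs from 0.44 to 0.80.

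Other enzymes and carriers of protein digestion changed in both directions as well. So did 8.04% of all probe sets upward and 8.82% downward, and 14.4% and 16.6% of those at least as bright as the dimmest peptidase. The counts of the lists below carry no test. Of 4 other apical peptidases with a probe set of their own, *Dpep1* (1.48) and *Cpm* (0.53) rose, none fell and 2 were not called. *Dpep1*, a dipeptidase that also splits the cysteinylglycine of glutathione, had signals of 8.05, 8.11 and 7.27 in mutant villi and 6.23, 6.40 and 6.35 in control villi. *Tmprss15*, for the enteropeptidase that activates trypsinogen, was at 7.80, 8.87 and 8.58 in mutant villi, against 9.02, 9.12 and 9.35 in control villi (change −0.75, adjusted p = 0.080 from limma). *Folh1*, a relative of *Naaladl1*, was under the array median in both groups (4.70 and 4.69). Of 11 cytosolic peptidases, 3 rose, 1 fell and 7 were not called, with a median change of 0.06. *Thop1* and *Cndp2* each rose by 0.61 and *Rnpep* fell by 0.39.

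Of 7 genes of peptide and amino acid uptake, 2 rose, 2 fell and 3 were not called. *Slc15a1*, for the carrier of di- and tripeptides, had signals of 11.47, 11.46 and 11.54 in mutant villi and 11.18, 11.24 and 11.26 in control villi, a rise of 0.26 (adjusted p = 0.037 from limma). *Slc6a19*, for the carrier of neutral amino acids, rose by 0.40, *Slc7a9* fell by 0.38 and *Slc36a1* fell by 0.46. Aminopeptidase N is known to form complexes with the product of *Slc6a19* at the brush border. Of the other brush-border hydrolases, *Sis* (2.52) and *Mgam* (1.19) rose, *Lct* fell by 0.94, and *Treh* and *Alpi* were not called.

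Of 11 genes of brush-border structure, 2 rose, 3 fell and 6 were not called, with a median change of 0.05. *Myo1a*, a motor of the microvillus, rose by 0.99, *Myo7b* fell by 0.50 and *Anks4b* fell by 0.44. *Vil1*, for villin, differed by 0.24 and was not called (limma adjusted p = 0.13). Of 9 enterocyte transcription factors, *Klf4* rose by 0.61, 4 fell and 4 were not called. *Prdm1*, a regulator of the suckling-type epithelium, fell by 0.84, *Cdx2* fell by 0.40 and *Hnf4a* differed by −0.06 (adjusted p = 0.69 from limma). *Prdm1* had signals of 9.40, 9.08 and 9.24 in mutant villi and 10.14, 10.04 and 10.06 in control villi, without overlap.

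Of 7 genes for peptides that enzymes of the group can cut, 2 rose, 2 fell and 3 were not called. *Gip*, an incretin that dipeptidyl peptidase 4 inactivates, fell by 1.17, and *Cck* fell by 0.84. *Gcg*, which encodes the incretin GLP-1 in the gut, rose by 1.19. *Tac1*, whose product substance P is cut by neprilysin, rose by 1.21, with a control mean of 5.38 under the array median. *Agt*, for angiotensinogen, differed by 0.92 without being called (limma adjusted p = 0.11), and mutant replicate 3 stood at 8.63 beside 7.24 and 7.26 in mutant replicates 1 and 2.

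**Figure D4:**
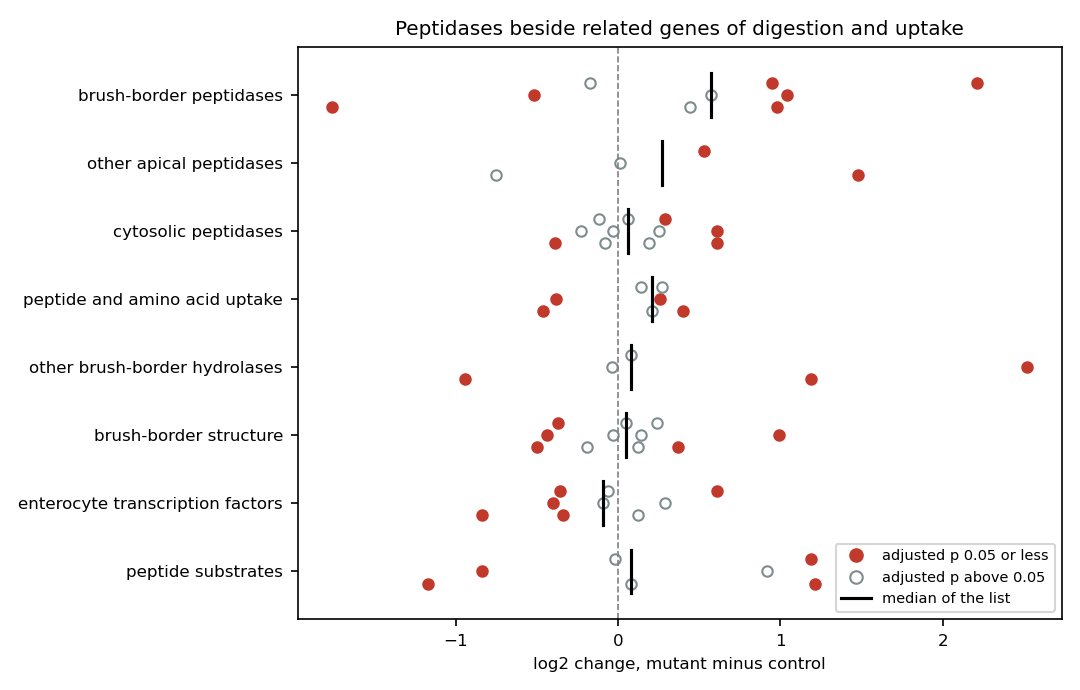
Log2 change, mutant minus control, of each gene in 8 lists (rows), with filled red circles at an adjusted p of 0.05 or less, open grey circles above it, and a black line at the list's median. The 9 brush-border peptidases span −1.76 to 2.21 around a median of 0.57, and the 11 cytosolic peptidases span −0.39 to 0.61 around 0.06.

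Markers of other cell types moved with genotype beside these results. Of 5 goblet cell markers, *Clca1*, *Tff3*, *Muc2* and *Spdef* fell and *Zg16* did not pass the test, and their summed signal was 2406 to 3275 in mutant villi and 19360 to 21360 in control villi. By qPCR in whole duodenum of the same age, which is another tissue sample, the study reports *Muc2* as not altered. Of 4 markers of proliferating cells, 3 rose, with a summed signal of 1339 to 1503 in mutant villi and 549 to 980 in control villi. Control replicate 1 was the lowest control array in all 4. *Mki67* rose by 0.92 (adjusted p = 0.039 from limma), with 7.79 in control replicate 1 beside 8.72 and 8.81 in the others. The study reports *Mki67* as unchanged, by qPCR and in the array data that are re-analysed here. Its text does not give the criterion for unchanged on the arrays. Its list of affected genes took a 2-fold change at a false discovery rate of 0.05 or less, and *Mki67* rose 1.89-fold here. Of 5 myeloid markers, *S100a9* and *S100a8* rose and *Adgre1* fell. None of 5 smooth muscle, 3 tuft cell or 4 pancreatic markers was called in limma, nor did any reach an unadjusted p under 0.05. The summed signal of the pancreatic markers ran from 576 to 2292 in mutant villi and from 732 to 2788 in control villi, lowest in mutant replicate 2 and control replicate 1. The part of these cells in the changes of the peptidases was not tested.

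The genes whose profile over the 6 arrays was most like that of *Xpnpep2*, by root mean square distance of signals centred on each gene's mean, were *Acox2* (0.14), *1700016C15Rik* (0.14) and *Slc13a2* (0.22). *Acox2*, for a peroxisomal oxidase, had signals of 8.38, 8.54 and 8.58 in mutant villi and 6.51, 6.39 and 6.22 in control villi. The genes most like *Mme* were *Arsg* (0.027), *Hpgds* (0.064) and *Hepacam2* (0.079). *Arsg*, for a lysosomal sulfatase, had signals of 7.85, 7.71 and 7.97 in mutant villi and 9.59, 9.64 and 9.66 in control villi. It was picked by its distance to *Mme* on these same arrays, so its likeness across replicates is no separate result. The likeness is measured over 6 arrays of 2 genotypes and is a description.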

How the data were processed

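Total RNA of villi from 6 samples (3 mutant, 3 control) was labelled with biotin by the Affymetrix whole-transcript protocol and hybridised to 1 array each. The authors deposited normalized log2 signals of 30177 probe sets, rounded to 0.01. The steps and software behind these signals, not given in the sources used here, could alter small differences. Names came from the platform annotation (1 symbol for 21789 probe sets), brought up to date through Entrez IDs for 21698. A gene with several probe sets was represented by the one with the highest mean.

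Limma 3.58.1 (R 4.3.3) was used to compare genotypes (lmFit and eBayes, 3.92 prior degrees of freedom), with no filter on low signals. The script was tested on simulated data. Exact permutation tests used scipy 1.17.1, and tables pandas 2.3.3. Same-numbered replicates were not treated as pairs. The 9 members, the gene lists and the tests were chosen with earlier results of these data known. All 9 members are named, with at most 3 called genes of each list by size of change and others as partners of a member. *Folh1*, *Tmprss15*, *Slc15a1*, *Alpi*, *Treh*, *Vil1*, *Hnf4a*, *Cck*, *Agt*, the marker genes and the sex-linked genes were named after their values were seen. Some genes of the lists are not reported here. Alternatives covered normalization, variance model, weights, low signals, probe sets tested, pairing and replicates. Dataset tables of the paper were not used. Promoter stretches came from RefSeq (GRCm38.p6).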

Additional observations from a re-analysis of the deposited data

How the results depend on the processing

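Of 135 values of the 9 genes under 15 alternative settings, 128 kept their direction and their side of the threshold, none reversed and none lost its call. The other 7 were gains of a call. *Anpep* was called with a trended and robust variance model (0.44, adjusted p = 0.039 from limma), without dim probe sets (0.036), with probe sets of a single symbol only (0.045) and without mutant replicate 3 (0.033). *Naaladl1* was called with array weights (0.67, adjusted p = 0.019), without dim probe sets (0.045) and without control replicate 1 (0.0033). Fewer probe sets were tested without dim ones and with a single symbol only, and the cause of the other gains was not tested. The count of peptidases that rose was 4 to 6 over the settings, the most without dim probe sets, and 2 fell in each. Leaving out 1 replicate gave 4 to 5 that rose.

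Over all probe sets, 2427 were higher and 2661 lower in mutant villi, against 1996 and 3456 with median centring and 2369 and 2782 with quantile normalization. Leaving out 1 replicate gave 1561 to 2037 higher and 1688 to 2348 lower, fewest without mutant replicate 2. Without control replicate 2 there were 1590 and 1746, and without control replicate 3 there were 1764 lower. Fewer samples enter these fits. With control replicates 2 and 3 averaged, 4 peptidases rose and 2 fell.

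The replicate number as a block changed no call of the 9 genes and left 2381 probe sets higher and 2576 lower. The deviations of same-numbered arrays correlated at 0.17, 0.04 and 0.12, against −0.16 to 0.09 for arrays of different numbers. These values are small, but each same-numbered value was the highest for its mutant array. They do not decide whether the number marks a pairing, and the main fit did not use it. Each of the 9 genes has 1 probe set, so the choice of probe set could not be varied. Precision is limited by the number of arrays, and raw arrays were not analysed here.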
